A study of Mus musculus with 20 samples.

Results

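The 3 genes described here encode the 2 melanocortin receptors of the brain, Mc4r and Mc3r, and the melanocortin receptor accessory protein Mrap2. They were chosen by gene symbol, and all 3 were found once among the 55471 genes of the count table, which covered 20 RNA-seq libraries of mouse hypothalamus slices. The mice were wild-type C57BL/6 in every group. The control group (n = 7) was fed the control diet ad libitum. The ad libitum risperidone group (n = 7) was fed a diet with risperidone, an antipsychotic drug that blocks dopamine and serotonin receptors, for 4 weeks. The pair-fed group (n = 6) was given the risperidone diet for 4 weeks with rations matched to the intake of a reference group (pair-feeding). The labels add that body weight did not differ from that of mice on the control diet, without making clear whether this covers both ways of feeding. No pair-fed group on the control diet was analysed here, so between the pair-fed and control groups the drug and the way of feeding cannot be told apart. Sex, age and the drug's dose are not stated in the labels. In the series title the melanocortin 4 receptor of the brain is named as a target of risperidone in weight gain. The levels of the receptor transcripts are described here, and the action of the receptor was not measured.

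Melanocortin receptors are G protein-coupled receptors that raise cAMP through Gs. Neurons of the arcuate nucleus release melanocortin peptides cut from proopiomelanocortin (Pomc), which activate the receptors, and other arcuate neurons release agouti-related protein (Agrp), which opposes them. MC4R in the paraventricular nucleus restrains feeding, and its loss causes obesity in mice and humans. MC3R is found mainly in the arcuate and ventromedial nuclei and acts on the response to fasting and on energy partitioning. MRAP2 is a small membrane protein that binds MC4R, promotes its signalling and its traffic to the primary cilium, and also binds the ghrelin, prokineticin and orexin receptors.

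Of the 3 genes, Mc4r was lower in both risperidone groups, at 71.2% of the control level on the ad libitum diet and 71.5% under pair-feeding. The pair-fed difference passed the test across all genes, but the call was lost in 17 of 33 alternatives. The mean of both risperidone groups also passed, and did so in 33 of 33 alternatives. Mc3r was at 80.9% and 77.6% of control, and neither difference passed. Mrap2, the accessory protein, was at 94.3% and 102% of control, so that the receptors became scarcer relative to Mrap2 in the pair-fed libraries.

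Mc3r (ENSMUSG00000038537) lies at chr2:172248492-172251114 on the forward strand of GRCm38 and is a gene of 1 exon. Mrap2 (ENSMUSG00000042761) lies at chr9:87144306-87184045 on the forward strand, with 4 to 5 exons in its 3 annotated transcripts. Neither gene overlaps another gene in the annotation. The 180 bases before the first annotated start of these genes are shown because the level of Mc3r relative to Mrap2 differed between the pair-fed risperidone and control groups, as described further on. The level of Mc4r relative to Mrap2 differed between these groups as well, but the Mc4r window is not shown. The sequences are those of RefSeq on GRCm38.p6 at chr2:172248312-172248491 for Mc3r and chr9:87144056-87144235 for Mrap2, both on the forward strand, and capitals mark matches to the motifs searched. The Mrap2 window ends before a start at 87144236, ahead of the gene start at 87144306 given above. The bases between these Mrap2 starts were not searched.
Mc3r: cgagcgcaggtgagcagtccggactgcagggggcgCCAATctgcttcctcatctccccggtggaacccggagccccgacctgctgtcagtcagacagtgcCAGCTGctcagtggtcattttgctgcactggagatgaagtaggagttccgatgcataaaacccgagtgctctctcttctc
Mrap2: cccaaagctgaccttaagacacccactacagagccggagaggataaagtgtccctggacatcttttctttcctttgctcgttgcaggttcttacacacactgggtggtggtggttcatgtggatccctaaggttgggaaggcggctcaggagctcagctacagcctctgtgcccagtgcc
The 7 motifs were searched on both strands. The Mc3r window held CCAAT (the CCAAT box) 145 bases before the start and CAGCTG (an E-box) 80 bases before it. Among 32851 mouse promoter windows of the same length, CCAAT was present in 27.5% and CAGCTG in 9.92%. The Mrap2 window held no match to either of these. Neither window held TATAAA (the TATA box, 8.94% of windows), TGACG (a cAMP response element half-site, 14.8%), GGGCGG (the GC box, 30.2%), CACGTG (an E-box, 4.81%) or AGAACA (a glucocorticoid response half-site, 11.5%). None of the motifs contains another. The GC content was 59.4% in the Mc3r window and 54.4% in the Mrap2 window, against a median of 53.3% over all windows.

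Of the libraries, 19 held 17316043 to 18606543 counts and ad libitum library 3 held 9748005, of which 22.4% fell on ribosomal RNA genes against at most 5.19% elsewhere. Ad libitum library 1 stood apart in another way: the summed level of 10 markers of cortex, hippocampus and amygdala was 1221 CPM (counts scaled with TMM to a common library size, the unit of all levels below), against 109 to 182 CPM in the other 19 libraries. Markers of the hypothalamic nuclei were present in every group, with the arcuate marker Kiss1 listed at 0 in all libraries. Separate mice are not stated in the labels for the libraries of a group, so the p-values measure only the spread among samples, part of which may be technical. In bulk tissue, fewer cells of a type and less RNA per cell cannot be told apart. Differences are log2 fold changes from edgeR's quasi-likelihood test over 17893 genes, with Benjamini-Hochberg adjustment over all of them.

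Compared per length of transcript in the control libraries, Mrap2 stood at 12.5 CPM per kb, Mc3r at 3.39 CPM per kb and Mc4r at 2.08 CPM per kb. In the ad libitum group the same genes stood at 11.9, 2.77 and 1.45 CPM per kb, and in the pair-fed group at 12.8, 2.63 and 1.49. Within each group every library's Mrap2 value was above every Mc3r value, and every Mc3r value above every Mc4r value. The other receptors were far lower. Mc5r, which acts mainly in exocrine glands, was at 0.184 CPM per kb in controls, with 6 to 24 counts per library. Mrap, the accessory protein that the adrenal ACTH receptor needs, had 0 to 9 counts. Mc1r, the pigment cell receptor, had 0 to 4 counts in a library and overlaps another gene on the opposite strand, and Mc2r, the ACTH receptor, had 0 to 2. Mc1r, Mc2r and Mrap did not pass the filter on low counts, so of the 5 receptors and 2 accessory proteins, 4 genes were tested.

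Mc4r (ENSMUSG00000047259) is a single-exon gene at chr18:66857704-66860506 on the reverse strand of GRCm38 and overlaps no other gene. Its level in the 7 control libraries ran from 4.98 to 7.38 CPM with a median of 5.34 (mean 5.82 ± 0.919, SD). In the 7 ad libitum risperidone libraries it ran from 2.68 to 4.85 CPM with a median of 4.24 (4.07 ± 0.687). In the 6 pair-fed libraries it ran from 3.84 to 4.43 CPM with a median of 4.21 (4.17 ± 0.213). The lowest ad libitum value was that of library 3, which held 19 Mc4r counts and the high share of ribosomal RNA. All 7 ad libitum and all 6 pair-fed libraries were thus below the lowest control library. Complete separation of this kind and direction was seen for 0.224% of all genes tested in the ad libitum group and for 0.861% in the pair-fed group. The separation also held with RLE, upper-quartile and total-count scaling.

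The margin of that separation was narrow on the ad libitum side. Control library 7, the lowest control, held 89 Mc4r counts, and ad libitum library 2, the highest of its group, held 93 counts in a larger library. The counting intervals of these libraries overlap, from 71.5 to 110 counts and from 75.1 to 114 counts (exact Poisson, 95%, counting error only). The control group was itself uneven, with control libraries 2 and 4 at 6.87 and 7.38 CPM and the other 5 between 4.98 and 5.63 CPM. The spread between controls (CV 15.8%) exceeded that of counting alone (9.68%), while the pair-fed libraries varied less (5.10%) than counting alone would give (11.5%).

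The fitted log2 fold change of Mc4r was -0.48 (95% interval -0.71 to -0.26) in pair-fed risperidone against control, with an adjusted p of 0.0419. Mc4r was 1 of 87 genes called in this comparison in either direction, 0.486% of those tested. This call stood close to the threshold and was lost in 17 of 33 alternatives. It was lost with the replicate number as a block (adjusted p = 0.137), without the filter on low counts (adjusted p = 0.103), and in 15 fits that each left out 1 library, namely control library 1, 2, 3, 4 or 6, ad libitum library 4, 5, 6 or 7, or any of the 6 pair-fed libraries. On the ad libitum diet the log2 fold change was -0.49 (-0.71 to -0.27) with an adjusted p of 0.0736, in a comparison where 0.0615% of genes were called. It passed there with DESeq2 (adjusted p = 0.0114) and with limma-voom with quality weights (adjusted p = 0.0451).

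Set against control as a mean, the risperidone groups together gave the narrowest interval for Mc4r, a log2 fold change of -0.49 (-0.67 to -0.30) with an adjusted p of 0.0113. By p-value it stood at rank 31 of 17893 genes, and 0.33% of genes were called. This call kept its direction and its side of the threshold in 33 of 33 alternatives, with an adjusted p of at most 0.0497. Between the risperidone groups the Mc4r log2 fold change was 0.01 (-0.23 to 0.24), with an adjusted p of 0.99 in a comparison where 0.397% of genes were called. The interval leaves room for a pair-fed level between 85.5% and 118% of the ad libitum level.

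**Figure D1:**
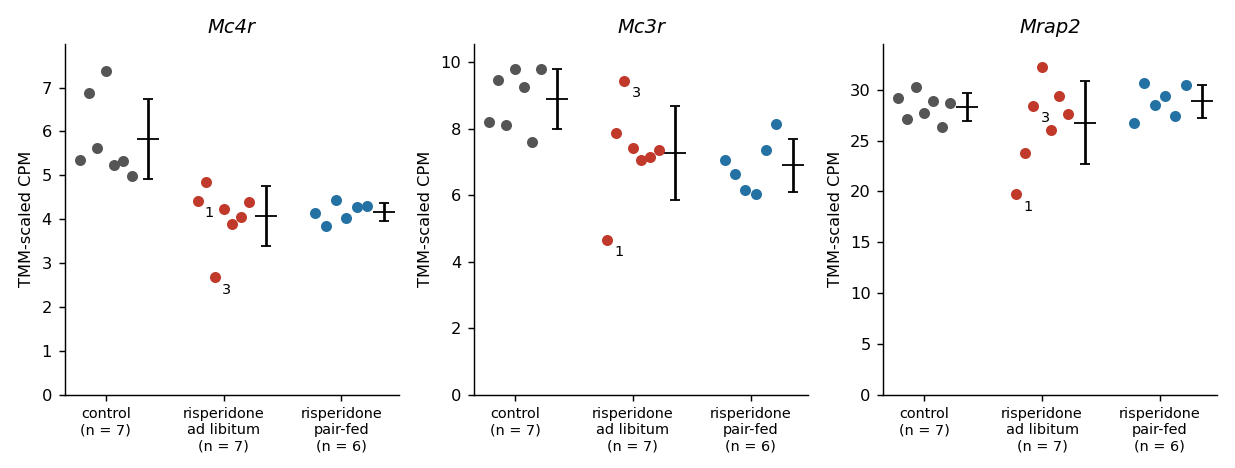
Levels of Mc4r, Mc3r and Mrap2 in each library (TMM-scaled CPM, linear axes from 0). Points are libraries, the bar beside each group is the mean with its SD, and the digits 1 and 3 mark ad libitum libraries 1 and 3. Every risperidone library lies below the lowest control for Mc4r (4.98 CPM), whereas the groups overlap for Mc3r and Mrap2.

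Mc3r in the control libraries ran from 7.60 to 9.79 CPM with a median of 9.26 (mean 8.89 ± 0.895, SD, n = 7). The ad libitum risperidone libraries ran from 4.66 to 9.44 CPM with a median of 7.36 (7.28 ± 1.41, n = 7). The pair-fed libraries ran from 6.04 to 8.15 CPM with a median of 6.85 (6.90 ± 0.794, n = 6). The groups overlapped: 5 of 7 ad libitum and 5 of 6 pair-fed libraries lay below every control, the exceptions being ad libitum libraries 2 and 3 and pair-fed library 6.

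On the ad libitum risperidone diet Mc3r was at a log2 fold change of -0.31 (95% interval -0.53 to -0.08), with an adjusted p of 0.253. Under pair-feeding it was at -0.37 (-0.60 to -0.14), with an adjusted p of 0.274. For the mean of both groups it was -0.34 (-0.53 to -0.14), with an adjusted p of 0.211. All 3 had an unadjusted p under 0.05, as 5.97%, 3.6% and 4.27% of all genes did in the downward direction in these comparisons. Between the risperidone groups the log2 fold change was -0.06 (-0.30 to 0.18), with an adjusted p of 0.85, in a comparison where 7.44% of genes were lower at an unadjusted p under 0.05.

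Whether Mc3r passed the test changed with the ad libitum libraries that stand apart, whose Mc3r levels lay at opposite ends of their group. Why the call changed was not tested. Library 1, with the high cortex markers, had the lowest Mc3r level of all libraries (4.66 CPM), and library 3, with the high ribosomal RNA share, had the highest level of its group (9.44 CPM). Without both, the pair-fed log2 fold change was again -0.37 but passed the test (adjusted p = 0.0156), with the same pair-fed and control libraries in both fits. The mean of both groups also passed without both libraries, at -0.32 (adjusted p = 0.0209). Without library 1 alone the adjusted p was 0.0356 for the pair-fed group and 0.0675 for the mean of both groups. The ad libitum difference alone passed in none of the alternatives, and with the cortex markers as a covariate it was -0.18 (adjusted p = 0.524).

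Mrap2 was measured with 202 to 575 counts per library, the deepest of the 3. Control libraries ran from 26.3 to 30.3 CPM with a median of 28.7 (mean 28.3 ± 1.33, SD, n = 7). Ad libitum risperidone libraries ran from 19.7 to 32.2 CPM with a median of 27.6 (26.8 ± 4.07, n = 7), and pair-fed libraries from 26.7 to 30.7 CPM with a median of 29.0 (28.9 ± 1.62, n = 6). The ad libitum group reached both below and above the control range, with 3 libraries under the lowest control and 1 over the highest. In the pair-fed group no library was under the control range and 2 were over it.

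Mrap2 was at a log2 fold change of -0.08 (-0.24 to 0.07, adjusted p = 0.67) on the ad libitum risperidone diet and 0.03 (-0.13 to 0.19, adjusted p = 1.0) in pair-fed risperidone. For the mean of both it was -0.03 (-0.16 to 0.11, adjusted p = 0.948), and between the risperidone groups 0.11 (-0.05 to 0.27, adjusted p = 0.528). The intervals allow a mean level on risperidone between 89.3% and 108% of control. The control and pair-fed spreads of Mrap2 (CV 4.71% and 5.62%) were close to that of counting (4.40% and 4.37%), whereas the ad libitum spread (15.2%) was well above it (4.81%). The lowest ad libitum values were those of libraries 1 (19.7 CPM) and 2 (23.8 CPM), which also had the highest summed cortex markers of all libraries, 1221 and 182 CPM.

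**Figure D2:**
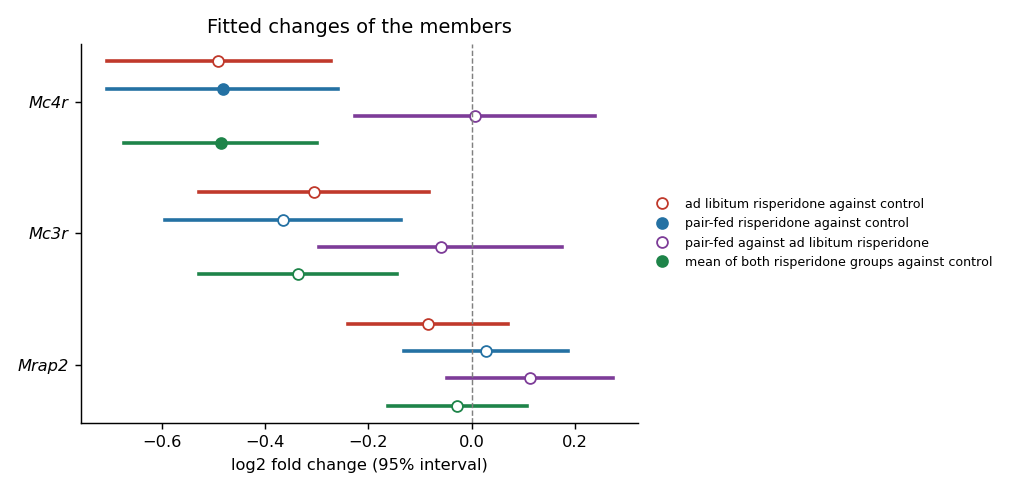
Log2 fold changes of the 3 genes in the 4 comparisons, with 95% intervals from edgeR's quasi-likelihood fit; filled circles passed an adjusted p of 0.05. Mc4r passed in the pair-fed comparison and in the mean of both groups, and the intervals of Mrap2 all include 0.

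Because the members are counted in the same library, their ratios need no scaling between libraries. The ratio of Mc4r to Mrap2 counts ran from 0.173 to 0.267 in controls, with a median of 0.186. In the ad libitum group it ran from 0.0941 to 0.224 with a median of 0.149, and in the pair-fed group from 0.125 to 0.157 with a median of 0.148. All pair-fed ratios were below all control ratios, while the ad libitum ratios of libraries 1 and 2 lay within the control range. For how many genes the ratio to Mrap2 separates in this way was not computed. The Mc4r level by itself separated likewise in the pair-fed group, as did the levels of 0.861% of all genes tested. On the log2 scale the pair-fed ratio was lower by 0.50 (difference -0.50, exact permutation p = 0.00117, adjusted over 9 tests 0.00787, two-sided). The adjustment covers only the 9 ratio tests, not all genes, and the members were chosen with earlier results of these data known. The ratio tests use the same counts as the gene tests above and are not independent of them. The ad libitum difference was -0.42 (exact permutation p = 0.0367, adjusted 0.110).

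The ratio of Mc3r to Mrap2 counts ran from 0.268 to 0.354 in controls (median 0.320), from 0.230 to 0.332 in the ad libitum group (median 0.267) and from 0.205 to 0.268 in the pair-fed group (median 0.240). The pair-fed difference was -0.39 on the log2 scale (exact permutation p = 0.00175, adjusted 0.00787), and the ad libitum difference was -0.21 (exact permutation p = 0.0624, adjusted 0.140). The pair-fed and control ratios met at the edge of their ranges. Between the receptors, the ratio of Mc4r to Mc3r counts had medians of 0.695, 0.573 and 0.585 in control, ad libitum and pair-fed libraries. Its log2 differences from control, -0.21 and -0.10, did not pass (exact permutation, adjusted p = 0.48 for both). None of the 3 ratios passed between the risperidone groups (differences 0.11, -0.08 and -0.18, adjusted p = 0.698, 0.698 and 0.242, exact permutation).

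**Figure D3:**
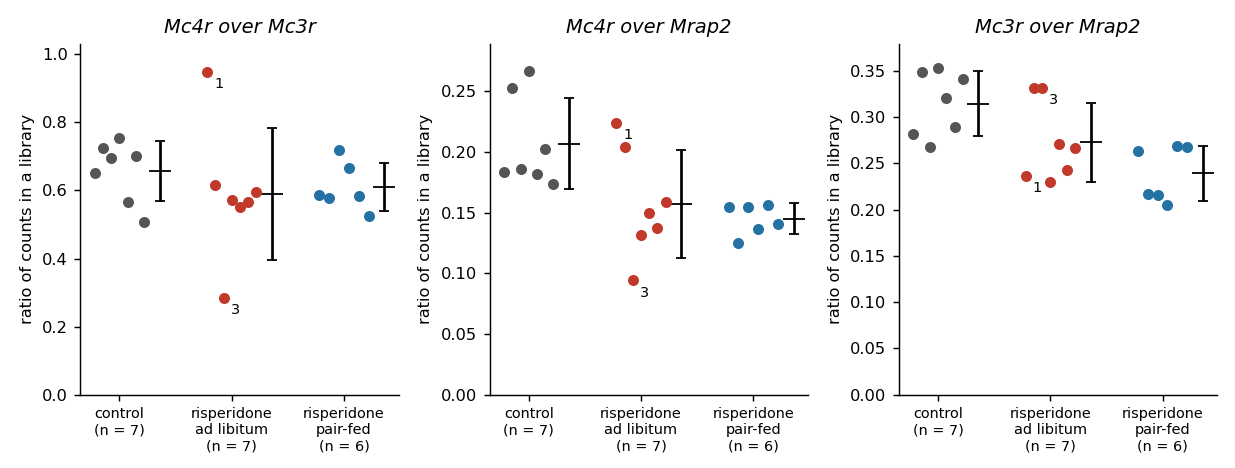
Ratios of the counts of 2 members within each library (linear axes from 0), with the mean and SD beside each group; digits mark ad libitum libraries 1 and 3. The pair-fed ratios of Mc4r to Mrap2 lie below every control ratio (0.125 to 0.157 against 0.173 to 0.267). For how many other genes the ratio to Mrap2 separates in this way was not computed.

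After the group means were subtracted, no pair of members passed a test of correlation across the 20 libraries. The correlation of Mc4r with Mc3r was r = -0.22 (permutation p = 0.379), with rho = 0.06 (permutation p = 0.823). That of Mc4r with Mrap2 was r = -0.32 (permutation p = 0.305), with rho = -0.36 (permutation p = 0.128). For Mc3r with Mrap2 it was r = 0.53 (permutation p = 0.102), with rho = 0.15 (permutation p = 0.551). Without ad libitum libraries 1 and 3, the farthest from the median, this r was -0.03 with the group means kept. It was -0.07 with the group means taken anew, so the r of 0.53 rested on those libraries. The r of Mc4r with Mc3r was 0.38 without these libraries, with the means taken anew, and 0.20 without ad libitum library 3 alone, so its sign rested on them too. Adjusted over the 3 pairs, the permutation p-values of r were 0.379, 0.379 and 0.306. Within the control, ad libitum and pair-fed groups, r was 0.40, -0.53 and 0.25 for Mc4r with Mc3r, -0.36, -0.33 and -0.40 for Mc4r with Mrap2, and 0.00, 0.70 and 0.02 for Mc3r with Mrap2.

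The genes whose level most resembled that of a member were ranked among 13900 genes by the same correlation. The ranking is a description over 20 libraries, of which ad libitum libraries 1 and 3 stand apart as given above. For Mc4r they were Zfp943 (r = 0.83), Chst5 (0.82), Stk19 (0.81), Smndc1 (0.81) and Hnrnpdl (0.81). For Mc3r they were Kifc3 (0.84), Dusp28 (0.83), Firre (0.82), Letm2 (0.82) and Tpra1 (0.81), and for Mrap2 Kcnip1 (0.90), Snx8 (0.90), Bmper (0.84), Tmem212 (0.84) and Rps15a (0.84). Without ad libitum libraries 1 and 3 the same genes had lower values. Among the genes named, r then ran from 0.41 (Letm2) to 0.81 (Kcnip1). The r of Zfp943 was 0.60 and that of Kifc3 0.62.

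The 8 lists of melanocortin pathway genes held 70 genes besides the 3 members, of which 66 were tested. In each of the 4 comparisons 0 of the 66 rose and 0 fell by edgeR at an adjusted p under 0.05. At an unadjusted p under 0.05 there were 14 in ad libitum risperidone, 5 in pair-fed risperidone, 11 between the risperidone groups and 10 for the mean. These are 21.2%, 7.58%, 16.7% and 15.2% of the 66, against 13.1%, 6.66%, 13.5% and 7.82% of all genes tested. Against control, 36 were higher and 30 lower in ad libitum risperidone (median log2 fold change 0.01, as for all genes) and 25 higher and 41 lower under pair-feeding (median -0.01, against 0.00 for all genes).

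Among the ligands, Pomc, the precursor of the activating peptides, was at 52.7 ± 7.14 CPM in controls, 35.5 ± 10.4 on the ad libitum diet and 42.0 ± 13.5 under pair-feeding (SD). It was at a log2 fold change of -0.57 (-0.93 to -0.20, adjusted p = 0.201) with ad libitum feeding and -0.33 (-0.70 to 0.05, adjusted p = 0.823) with pair-feeding. Pomc is also a pituitary gene: of 7 pituitary markers, Pomc among them, 4 were tested and 3 were lower in each risperidone group, Lhb was at 0 in every library, and the summed level was 50.4 to 110 CPM in controls, 28.1 to 63.6 CPM with ad libitum and 35.6 to 79.4 CPM with pair-fed risperidone. Their part in the Pomc values was not tested. Agrp, the opposing ligand, was at 9.07 ± 1.54, 8.39 ± 2.36 and 10.7 ± 2.17 CPM, with log2 fold changes of -0.13 (adjusted p = 0.775) and 0.24 (adjusted p = 0.889). Agrp overlaps the exons of Ctcf on the opposite strand and of Gm5914 on the same strand, so part of its counts may belong to these genes. Asip, the agouti ligand, was not matched and is not analysed here. Of the enzymes that cut or degrade these peptides, Pcsk1 was at -0.11 and -0.13 against control, and Prcp at -0.03 and 0.19, with adjusted p-values of 0.441, 0.781, 0.899 and 0.562.

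Mc5r, the remaining receptor tested, was at a log2 fold change of 0.31 (-0.23 to 0.85, adjusted p = 0.651) on the ad libitum diet and -0.38 (-0.98 to 0.22, adjusted p = 0.922) under pair-feeding, with wide intervals from its low counts. Gnas, which encodes the Gs protein of the receptors, was at -0.14 (adjusted p = 0.302) and -0.05 (adjusted p = 0.987). Atrnl1, an attractin relative, was at 0.31 (adjusted p = 0.302) and 0.03 (adjusted p = 1.0). Of the other receptors that MRAP2 binds, the ghrelin receptor Ghsr was at -0.17 and -0.39 and the prokineticin receptor Prokr2 at 0.17 and -0.21, with adjusted p-values of 0.752, 0.781, 0.514 and 0.815. Bbs4, of the complex that moves receptors into cilia, was at -0.12 (adjusted p = 0.283) and -0.08 (adjusted p = 0.823).

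Of the feeding signals that act on or beside these neurons, the satiety peptide precursor Cartpt was at -0.31 (-0.50 to -0.12, adjusted p = 0.189) and -0.27 (-0.47 to -0.07, adjusted p = 0.451). The neuropeptide Y receptor Npy1r was at -0.20 (adjusted p = 0.296) and -0.30 (-0.47 to -0.14, adjusted p = 0.15). Of the genes of the neurons downstream, Bdnf, a growth factor that acts after MC4R in feeding control, was at 0.27 (0.06 to 0.48, adjusted p = 0.283) and -0.02 (adjusted p = 1.0). Trh, the thyrotropin-releasing hormone of the paraventricular nucleus, was at -0.42 (-0.78 to -0.06, adjusted p = 0.31) and -0.18 (adjusted p = 0.961), and Brs3, a receptor of energy balance neurons, at -0.23 (adjusted p = 0.31) and -0.11 (adjusted p = 0.937).

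**Figure D4:**
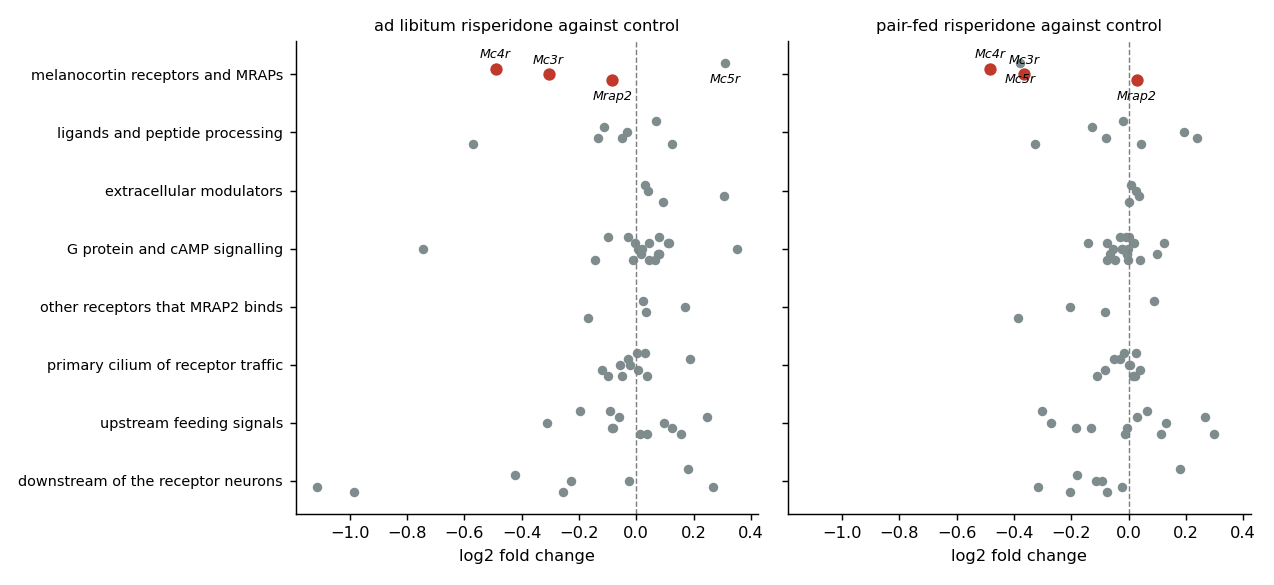
Log2 fold changes against control of each tested gene of the 8 pathway lists, with the members in red. Mc4r (-0.49 and -0.48) and Mc3r (-0.31 and -0.37) lie on the negative side in both panels; the lowest points of the left panel, in the row of downstream genes, are Avp and Oxt.

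Markers of some hypothalamic regions, the paraventricular nucleus where MC4R acts among them, were mostly lower in the risperidone groups. None of those described here passed the test. Of all genes tested, 47.1% were lower in ad libitum and 48.5% in pair-fed risperidone. Other regions differed. Of 4 dorsomedial markers, 3 were higher and 1 lower in ad libitum (median log2 fold change 0.16), and 4 were lower in pair-fed risperidone (-0.13). Of 6 suprachiasmatic markers, 3 were higher and 3 lower in ad libitum (0.08), and 4 were higher and 2 lower in pair-fed risperidone (0.04). Of 9 paraventricular and supraoptic markers, all tested, 0 were called, 7 were lower in ad libitum (median log2 fold change -0.26) and 8 in pair-fed risperidone (-0.14). Avp, vasopressin, differed most, at -1.12 (adjusted p = 0.367) and -0.32 (adjusted p = 0.996). Their summed level was 402 to 721 CPM in controls, 318 to 589 CPM on the ad libitum diet and 274 to 679 CPM under pair-feeding. The mean log2 CPM of these markers in each library, not the sum, was used as a covariate. With it, the pair-fed log2 fold change of Mc4r was -0.54 (adjusted p = 0.0148) and the ad libitum one -0.61 (adjusted p = 0.157).

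Arcuate markers, of which 8 were tested, were lower for 7 in ad libitum risperidone (median -0.11, with Pomc the farthest) and for 4 in pair-fed risperidone (-0.06). Their summed levels were 302 to 366, 260 to 335 and 272 to 350 CPM in control, ad libitum and pair-fed libraries. Of 6 ventromedial markers 4 were lower and 2 higher in each risperidone group (medians -0.09 and -0.14), and Nr5a1, the transcription factor that defines the nucleus, was at -0.45 (adjusted p = 0.201) and -0.34 (adjusted p = 0.637). Their summed levels were 501 to 561, 386 to 541 and 478 to 511 CPM. These are the nuclei where MC3R is known, and their part in the Mc3r values was not tested. Of 6 lateral hypothalamic markers 5 were lower in each risperidone group (medians -0.32 and -0.18), with the neuropeptide gene Npvf the farthest at -0.48 (adjusted p = 0.263) and -0.39 (adjusted p = 0.711). Their summed levels were 853 to 1120 CPM in controls, 429 to 994 CPM on the ad libitum diet and 842 to 971 CPM under pair-feeding. Of 4 tested preoptic markers 4 were lower with ad libitum feeding (median -0.22, with galanin, Gal, at -0.37, adjusted p = 0.0842) and 3 with pair-feeding (-0.15, with Hmx3 at -0.42, adjusted p = 0.278), and their summed levels were 66.1 to 86.2, 49.6 to 75.9 and 64.1 to 78.9 CPM in control, ad libitum and pair-fed libraries. The part of these regions in the values of the members was not tested.

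Of the 9 tested markers of cortex, hippocampus and amygdala, all were higher in ad libitum risperidone (median log2 fold change 1.38), with Slc17a7, which loads glutamate into synaptic vesicles, at 3.94 (adjusted p = 0.105). In pair-fed risperidone the median was -0.02. The summed level was 117 to 132 CPM in controls and 109 to 128 CPM in pair-fed libraries, and 113 to 138 CPM in the ad libitum libraries other than 1 and 2. With the mean log2 CPM of these markers as a covariate, the ad libitum log2 fold change of Mc4r was -0.53 (adjusted p = 0.0616) and the pair-fed one -0.48 (adjusted p = 0.0223). That of Mrap2 in the ad libitum group was then 0.03 (adjusted p = 0.917).

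**Figure D5:**
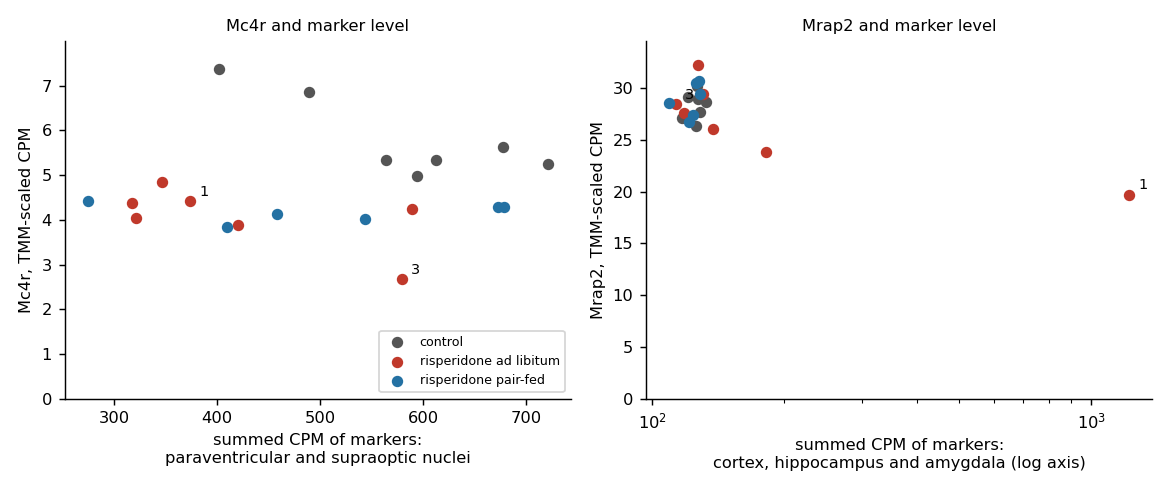
Left, Mc4r level against the summed paraventricular and supraoptic markers in each library; right, Mrap2 level against the summed cortex, hippocampus and amygdala markers (log axis). All values are TMM-scaled CPM, and digits mark ad libitum libraries 1 and 3. The marker sums of the groups overlap in the left panel (402 to 721 CPM in controls, 274 to 679 CPM under pair-feeding), and in the right panel library 1 combines the highest cortex markers (1221 CPM) with the lowest Mrap2 (19.7 CPM).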

How the data were processed

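The authors deposited raw counts of reads per gene for 20 hypothalamus libraries, sequenced as 150 bp paired-end reads per the labels' protocols. STAR, featureCounts and DESeq2 with GRCm38 and mm10 are named per the submitters' processing notes. Tool versions, annotation release and strand setting were not given in the sources used here, so overlapping genes are uncertain. Symbols and positions came from the GENCODE annotation of GRCm38, which matched 55230 of 55471 genes and left 241.

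All genes were tested with edgeR 4.0.16 (R 4.3.3): TMM scaling, filterByExpr with a minimum count of 10, and 1 quasi-likelihood model of the 3 groups, with a threshold of 0.05 on the adjusted p. Ratios added 0.5 to each count and used an exact permutation test. Log CPM used a prior count of 2. DESeq2 1.42.0, limma 3.58.1 (voom), other filters and scalings, covariates, a replicate block and fits without single libraries were alternatives.

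The members and gene lists were chosen with earlier results of these data known. Named genes were the members and their relatives, Pomc, Agrp, up to 3 genes of smallest p per list, the 5 most alike genes per member, and the marker that differed most. Over 57 pairs of libraries of 1 group, chi-square divided by its degrees of freedom was at least 2.641, so none was a repeat. The scripts were tested on simulated data.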

Additional observations from a re-analysis of the deposited data

How the results depend on the processing

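Mc4r for the mean of both risperidone groups kept its call in 33 of 33 alternatives, with log2 fold changes from -0.57 up to -0.42. On the ad libitum diet it passed with DESeq2 (-0.48) and limma-voom (-0.45). In pair-fed risperidone the call was lost without the low-count filter (-0.48, adjusted p = 0.103), with the replicate block (-0.48, adjusted p = 0.137) and in 15 fits without 1 library, whose values ran from -0.52 to -0.42. Mc3r in pair-fed risperidone passed with limma-voom (-0.35), with the groups compared alone (-0.37) and without ad libitum libraries 1 and 3 (-0.37), and without 1 library ran from -0.42 to -0.33, passing only without ad libitum library 1. Its mean of both groups passed with limma-voom (-0.31) and without libraries 1 and 3 (-0.32).

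Differences near 0 changed sign. Mc4r between the risperidone groups was -0.0045 with DESeq2, -0.029 with limma-voom, -0.042 without libraries 1 and 3, and -0.048 to 0.052 without 1 library. Mrap2 in ad libitum risperidone was 0.027 with the cortex covariate. Its mean of both groups was 0.0060 with limma-voom, 0.030 with the cortex covariate, 0.029 with the paraventricular covariate, and -0.054 to 0.0036 without 1 library. Without 1 library, Mc4r over Mc3r between the risperidone groups ran from -0.053 to 0.23, Mc4r over Mrap2 from -0.19 to 0.018, and Mc4r over Mrap2 in ad libitum risperidone from -0.51 (passing without library 1, adjusted p = 0.028) to -0.31. With group means taken anew, the r of Mc4r with Mc3r was 0.38 without libraries 1 and 3 and -0.34 to 0.20 without 1 library. That of Mc3r with Mrap2 was -0.074 and -0.017 to 0.61.

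Counts of genes called by edgeR were 11 in ad libitum and 87 in pair-fed risperidone, 71 between them and 59 for the mean. In that order they were 110, 134, 170 and 99 with DESeq2, 51, 223, 139 and 151 with limma-voom, 3, 245, 31 and 18 with the groups compared alone, and 48, 250, 142 and 193 without libraries 1 and 3. With the cortex covariate the first 3 were 25, 149 and 134. With the paraventricular covariate the first was 0 and the last 29. Without 1 library they ran from 0 to 35, 66 to 166, 39 to 130 and 36 to 99, the highest each without ad libitum library 1. With the replicate block they were 1, 65, 48 and 45. No pairing by replicate number was seen. The deviations of 19 same-numbered pairs had a mean r of -0.007, against 0.001 for 114 others, which cannot show that pairing was absent. The causes were not tested. At 19 to 141 Mc4r counts per library, counting error limits the order of single libraries.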
